A study of Mus musculus with 6 samples.

Results

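The 9 genes described here mark megakaryocytes, the large marrow cells that make platelets, and the platelets themselves. They were chosen by name from a table of 17173 genes: the platelet chemokines Pf4 and Ppbp, the fibrinogen receptor chains Itga2b and Itgb3, the von Willebrand factor receptor chains Gp1ba, Gp1bb and Gp9, and the receptors Clec1b and Treml1. Earlier results of these data were known when the choice was made. All 9 had a row in the table, all 9 had reads that could be solved for each library, and all 9 passed the minimum mean of 10 normalized counts. The material was bone marrow RNA of mice that the labels call VkCHE in both groups, from a study of Che-1 in a mouse model of multiple myeloma, a plasma cell cancer. There were 3 libraries of the genotype labelled control and 3 of the genotype labelled Che-1 silencing, and the labels give neither age nor strain nor the agent used. The titles name the latter libraries vkche, a term the labels do not explain, and the protocol says that libraries were made in triplicate without saying whether each came from a separate mouse. The p-values therefore rest on spread between libraries, which may be partly technical, and in some fits on a spread shared over genes.

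Megakaryocytes grow from marrow progenitors under thrombopoietin, become polyploid and shed platelets into marrow sinusoids. Platelets have no nucleus and carry RNA passed on by the megakaryocyte, so marrow RNA of these genes can come from megakaryocytes, from their late progenitors and from platelets. At a wound the GPIb-IX complex catches von Willebrand factor, the integrin of the Itga2b and Itgb3 chains then binds fibrinogen, and alpha granules release the chemokines. In bulk marrow, fewer cells of a type and less RNA per cell cannot be told apart.

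Depth, the targeted gene and Y-linked reads bear on how the labels can be read. Solved gene reads ran from 11040250 to 24079145 per library, and reads of the ERCC spike-ins, synthetic RNAs added in known amounts, from 228087 to 1149392. Aatf, which encodes Che-1, had 896, 396 and 421 normalized counts in control 1, 2 and 3 and 1986, 3808 and 1223 in Che-1 silencing 1, 2 and 3. This was a rise of 1.98 log2 units on the spike-in scale (SE 0.57, limma adjusted p = 0.0022), and 0.45 relative to the median gene (SE 0.19, limma adjusted p = 0.143). Without control 2 or control 3 this call was lost (limma adjusted p = 0.0570 and 0.0578). It was also lost when control 2 and 3 and Che-1 silencing 1 and 2 were each summed into 1 library (0.158), and with the gene's own spread in place of a shared one (0.0747). The libraries labelled Che-1 silencing were thus not lower in the targeted RNA, and every direction that follows is that of the label only. The Y-linked gene Ddx3y had 2168, 3809 and 4151 reads in control 1, 2 and 3 and none, a count of 0, in any of the others, so genotype and sex cannot be told apart. Che-1 silencing 3 stood apart from Che-1 silencing 1 and 2, and calls are given with and without it. The authors' normalized counts are read counts divided by a factor from the spike-ins, called the spike-in scale here. On that scale the median log2 difference over all genes, Che-1 silencing minus control, was 1.54, so levels relative to the median gene of the same library, the relative scale, are given beside it.

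The 9 genes took up a nearly constant share of the reads in the control libraries and very different shares in the libraries labelled Che-1 silencing. Together they had 667, 694 and 710 RPM (reads per 1000000 solved gene reads) in control 1, 2 and 3. The values were 174, 277 and 1276 in Che-1 silencing 1, 2 and 3. Che-1 silencing 1 and 2 thus lay below every control library and Che-1 silencing 3 above every one. The group means were 690.0 ± 21.5 and 576 ± 609 RPM (SD, n = 3 each; exact two-sided permutation p = 1.0, where 0.10 is the smallest p that 3 against 3 libraries allow). On the spike-in scale their summed normalized counts were 8617, 5080 and 5870 in the control libraries. They were 5172, 13647 and 22942 in Che-1 silencing 1, 2 and 3, so the groups overlapped there too (exact two-sided permutation p = 0.30).

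By limma no member was called higher or lower on either scale, while edgeR and DESeq2 called some higher on the spike-in scale. Higher on the spike-in scale were 0 of 9, where 66.7% of the 14573 genes tested were called higher and 0.748% lower (limma, Benjamini-Hochberg adjusted p of at most 0.05). There limma used a spread shared over genes in place of a gene's own. The share called higher was 21.8% without control 2 and 24.2% without control 3. It was 3.62% with both pairs of libraries summed and 0% with each gene's own spread. In each of these settings 0 of 9 members were called higher. On the relative scale 0 of 9 were called, where 0% of all genes tested were called higher and 0.0274% lower. At an unadjusted p under 0.05 the count was also 0 of 9 on both scales, against 70.9% of all genes tested on the spike-in scale and 35.1% on the relative scale. By edgeR's quasi-likelihood test 3 of 9 rose on the spike-in scale, Pf4, Clec1b and Treml1, where 68.9% of all genes rose and 0.576% fell. By DESeq2 2 of 9 rose, Pf4 and Itgb3, where 72.4% of all genes rose and 0.364% fell. Neither tool called a member on the relative scale, where edgeR called 0% of all genes higher and 0.0274% lower and DESeq2 14.9% and 12.1%. All 9 log2 differences were above 0 on the spike-in scale (93.8% of all genes) and all 9 were below 0 on the relative scale (49.3% of all genes). The median over the 9 was 0.69 on the spike-in scale and -0.84 on the relative scale, beside 1.54 and 0.01 over all genes tested.

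**Figure D1:**
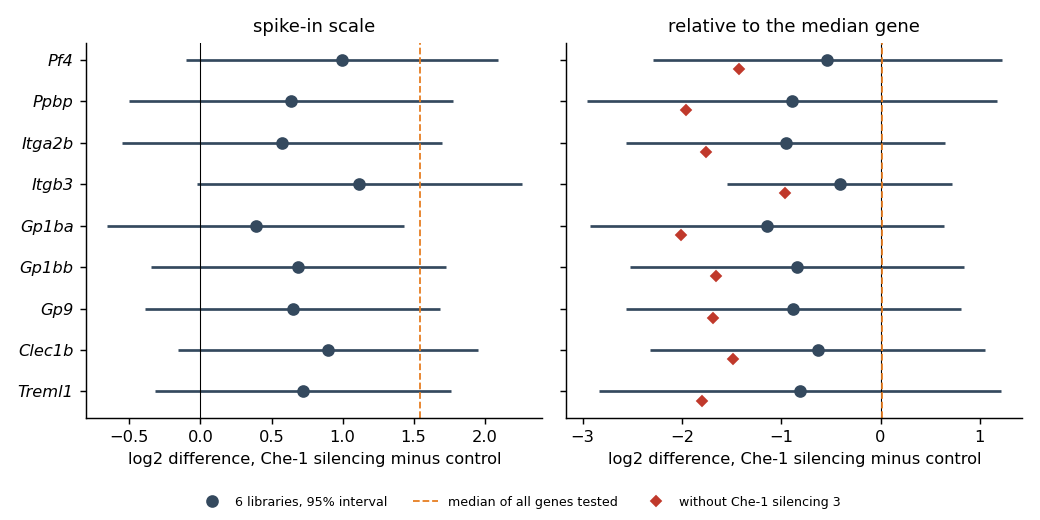
Log2 differences (Che-1 silencing minus control, horizontal axes) of the 9 genes on the spike-in scale (left) and relative to the median gene (right), with limma 95% intervals over 6 libraries as bars. Every interval includes 0 on both sides, and the red diamonds, without Che-1 silencing 3, lie between -2.01 and -0.96 on the relative scale.

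The call depended on one library. Without Che-1 silencing 3, all 9 genes fell on the relative scale (limma adjusted p from 0.0013 to 0.0104), where 25.3% of all 14538 genes tested fell and 27.5% rose. This left Che-1 silencing 1 and 2, both below every control library in all 9 genes, so the direction was fixed by their order. These calls show the weight of that library and are not separate evidence of a fall. The differences ran from -0.96 log2 units for Itgb3 to -2.01 for Gp1ba, with a median of -1.69. Between them lay Pf4 at -1.42, Clec1b at -1.49, Gp1bb at -1.65, Gp9 at -1.69, Itga2b at -1.76, Treml1 at -1.79 and Ppbp at -1.95, with SEs from 0.19 to 0.36 over the 9. Spike-in values without that library gave 0 of 9 calls in either direction, where 75.5% of all genes were higher and 1.61% lower, and a median difference of 0.15. Without Che-1 silencing 1 a single member, Treml1, rose on the spike-in scale (log2 difference 1.54, limma adjusted p = 0.0473), where 38.9% of all genes rose and 0.172% fell.

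The order of the libraries was the same for every member on the relative scale. In all 9 genes Che-1 silencing 1 was the lowest library, Che-1 silencing 2 the next lowest and Che-1 silencing 3 the highest, with the 3 control libraries between. Of all genes tested, 6.35% had Che-1 silencing 1 and 2 below and Che-1 silencing 3 above every control library, and 5.78% had the reverse. Che-1 silencing 1 and 2 were below every control library in 36.0% of all genes and Che-1 silencing 3 was above every one in 33.7%. In 0 of 9 were all 3 libraries labelled Che-1 silencing on one side of all 3 control libraries, where 20.5% of all genes had them above and 19.7% below. This order was noticed in the values and was not chosen beforehand. Measured from the control mean of each gene, the median of the 9 was -2.13 log2 units in Che-1 silencing 1, -1.19 in Che-1 silencing 2 and 0.79 in Che-1 silencing 3. In the control libraries it was 0.02, -0.02 and 0.01. The SD over the 3 control libraries lay between 0.01 and 0.27 log2 units for single genes, and over the 3 libraries labelled Che-1 silencing between 1.0 and 1.86.

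**Figure D2:**
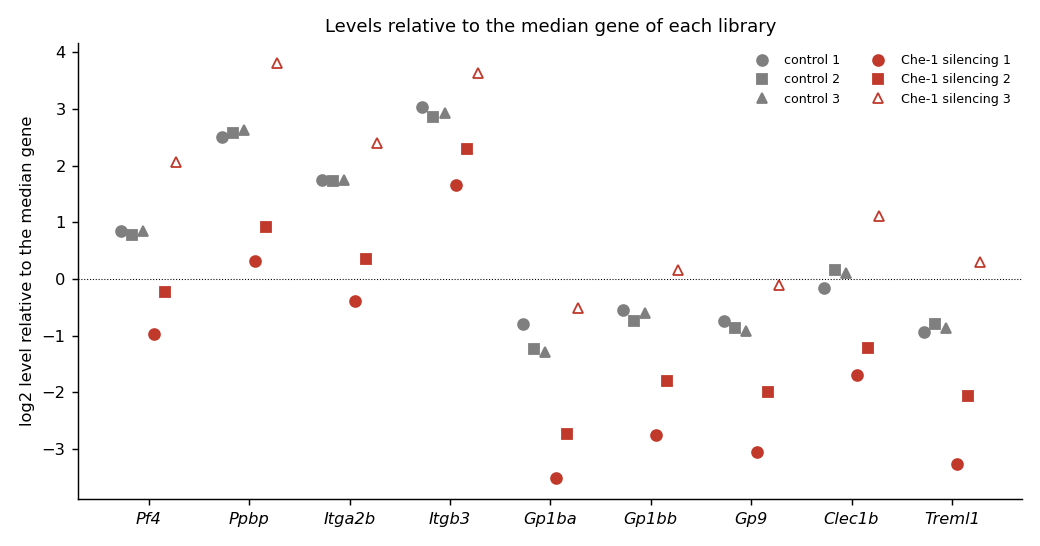
Log2 level of each gene relative to the median gene of the same library (vertical axis); grey symbols are the control libraries, filled red symbols Che-1 silencing 1 and 2, open red triangles Che-1 silencing 3. In all 9 genes the filled red symbols lie below and the open triangle above the 3 control libraries.

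The platelet chemokines come first. Pf4 encodes platelet factor 4, a heparin-binding chemokine of alpha granules and a classic megakaryocyte marker. It had 695, 405 and 473 normalized counts in control 1, 2 and 3, and 408, 1131 and 2282 in Che-1 silencing 1, 2 and 3. Che-1 silencing 1 lay within the control libraries and the other two lay above them. The means were 524 ± 152 and 1274 ± 945 (SD, n = 3 each), a log2 difference of 0.99 on the spike-in scale (SE 0.56, limma adjusted p = 0.102). Relative to the median gene Pf4 stood at 0.85, 0.78 and 0.84 log2 units in the control libraries and at -0.97, -0.23 and 2.06 in Che-1 silencing 1, 2 and 3. The relative difference was -0.54 (95% interval -2.29 to 1.22, limma adjusted p = 0.598). It turned to 0.051 by both edgeR and DESeq2, and to 0.094 by limma without Che-1 silencing 1.

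Ppbp encodes pro-platelet basic protein, the precursor of the neutrophil-attracting chemokine NAP-2, and lies beside Pf4 on mouse chromosome 5. Its normalized counts were 2194, 1407 and 1642 in the control libraries, against 998, 2504 and 7643 in Che-1 silencing 1, 2 and 3. The lowest and the highest of the 6 values were thus both in libraries labelled Che-1 silencing. The relative levels were 2.50, 2.58 and 2.64 log2 units against 0.32, 0.92 and 3.81. The relative difference was -0.89 (SE 0.86, limma adjusted p = 0.458), and without Che-1 silencing 3 it was -1.95 (SE 0.19, limma adjusted p = 0.0013). There were 3.16, 3.47 and 3.47 reads of Ppbp for each read of Pf4 in the control libraries, against 2.44, 2.21 and 3.35 in Che-1 silencing 1, 2 and 3. Che-1 silencing 3 lay within the control ratios and the other two lay below them (exact two-sided permutation p = 0.20 on log2 ratios, adjusted over 5 ratios 0.333).

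The fibrinogen receptor chains did not keep a constant ratio to each other. Itga2b encodes integrin alpha IIb, also known as CD41, which appears early in the megakaryocyte lineage and on some blood progenitors. Its normalized counts were 1299, 780 and 887 in the control libraries, against 609, 1700 and 2873 in Che-1 silencing 1, 2 and 3. Relative to the median gene it was nearly the same in the 3 control libraries, at 1.75, 1.73 and 1.75 log2 units, and stood at -0.39, 0.36 and 2.39 in Che-1 silencing 1, 2 and 3. The relative difference was -0.96 (SE 0.67, limma adjusted p = 0.321).

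Itgb3 encodes the beta 3 chain, which pairs with alpha IIb on platelets and with alpha V on many other cells, osteoclasts among them. It had 3163, 1721 and 2021 normalized counts in the control libraries, against 2544, 6514 and 6789 in Che-1 silencing 1, 2 and 3. The relative levels were 3.03, 2.87 and 2.94 log2 units against 1.67, 2.30 and 3.63, a range of 1.97 where the other members ranged over 2.79 to 3.55. The relative difference was -0.41 (SE 0.47, limma adjusted p = 0.530), and without Che-1 silencing 1 it was 0.022. For each read of Itga2b there were 2.44, 2.21 and 2.28 reads of Itgb3 in the control libraries, against 4.17, 3.83 and 2.36 in Che-1 silencing 1, 2 and 3. The ratio was above every control library in Che-1 silencing 1 and 2 and within them in Che-1 silencing 3 (two-sided exact permutation p = 0.20, adjusted over 5 ratios 0.333). Itgav, the gene of the alpha V chain, was looked at only after these values were seen. Its relative levels were 1.77, 2.34 and 2.31 log2 units in the control libraries, against 2.15, 2.20 and 2.62 in Che-1 silencing 1, 2 and 3, so Che-1 silencing 1 and 2 lay among the control libraries.

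**Figure D3:**
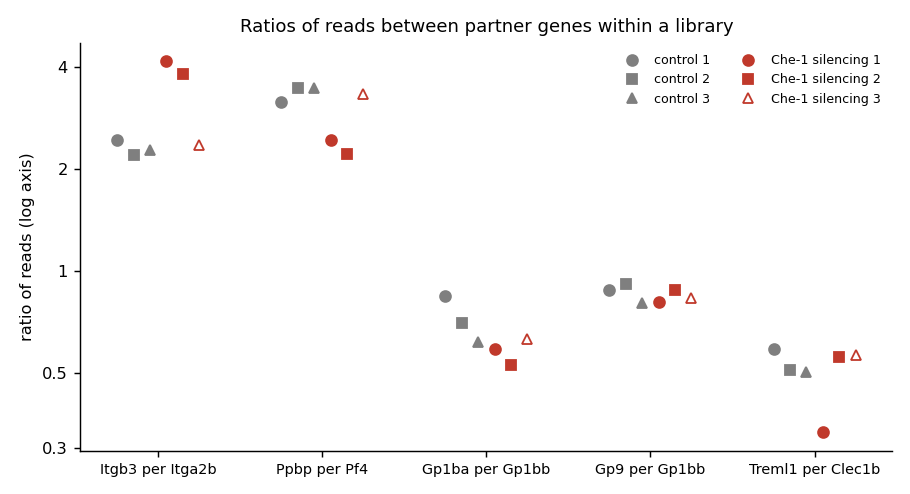
Reads of a gene per read of its partner within each library (vertical log axis), for 5 pairs of members; symbols as for the relative levels. Itgb3 per Itga2b was 4.17 and 3.83 in Che-1 silencing 1 and 2 and lay between 2.21 and 2.44 in the other 4 libraries, and Gp9 per Gp1bb lay between 0.80 and 0.91 in all 6.

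The GPIb-IX complex, which tethers platelets to von Willebrand factor, is built from the products of Gp1ba, Gp1bb and Gp9. Gp1ba encodes the ligand-binding alpha chain. It had 190, 211 and 225 reads in the control libraries, against 56, 83 and 299 in Che-1 silencing 1, 2 and 3, or 222, 99.2 and 107 against 69.1, 199 and 384 normalized counts. With 56 reads the 95% Poisson interval of the lowest value, 52.2 to 89.7 normalized counts, did not reach any control value, though it overlapped the interval of control 2, 86.2 to 114. Intervals of this kind cover counting error only. The relative levels were -0.79, -1.24 and -1.29 log2 units against -3.52, -2.73 and -0.51, and the relative difference was -1.14 (SE 0.74, limma adjusted p = 0.292).

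Gp9 encodes the small chain GPIX, which the complex needs to reach the surface. Its normalized counts were 232, 129 and 139 in the control libraries, against 95, 334 and 506 in Che-1 silencing 1, 2 and 3, and its relative difference was -0.88 (SE 0.70, limma adjusted p = 0.377). Gp1bb encodes the beta chain and had 264, 141 and 173 against 117, 379 and 610 normalized counts, with a relative difference of -0.84 (SE 0.70, limma adjusted p = 0.395). Gp9 and Gp1bb kept within a narrow ratio in the 6 libraries, from 0.80 to 0.91 reads of Gp9 for each read of Gp1bb. The value of Gp1bb is uncertain, since in the GENCODE M21 annotation 1902 of its 2087 exon bases are shared with Sept5, a septin gene on the same strand. Sept5 itself was assigned 28, 93 and 112 reads in control 1, 2 and 3 and 70, 60 and 82 in Che-1 silencing 1, 2 and 3, fewer than the 226, 300, 364, 95, 158 and 475 reads of Gp1bb in the same order. Sept5 did not follow the order of the members: its relative levels were -3.52, -2.40 and -2.28 against -3.20, -3.19 and -2.36 log2 units.

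The promoters of these genes are shown because megakaryocyte genes are known for sites of GATA and ETS factors close to the start. RefSeq promoters of GRCm38.p6, 250 bases before to 50 after the start, were matched by symbol for 8 of the 9 members. Capitals mark matches on either strand to AGATAA or AGATAG and to TGATAA or TGATAG, written here as GATA matches, and to AGGAAG or CGGAAG, written as ETS matches. Coordinates are of that build and not of the authors' mm9. The 3 promoters with both kinds follow, at chr5:90772185-90772484, plus strand, chr11:70638872-70639171, plus strand, and chr16:18622354-18622653, minus strand.
Pf4: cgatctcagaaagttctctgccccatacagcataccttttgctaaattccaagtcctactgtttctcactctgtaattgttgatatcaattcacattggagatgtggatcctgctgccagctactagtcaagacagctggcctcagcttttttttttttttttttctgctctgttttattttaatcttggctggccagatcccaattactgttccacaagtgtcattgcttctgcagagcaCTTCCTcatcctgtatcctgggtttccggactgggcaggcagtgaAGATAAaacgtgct
Gp1ba: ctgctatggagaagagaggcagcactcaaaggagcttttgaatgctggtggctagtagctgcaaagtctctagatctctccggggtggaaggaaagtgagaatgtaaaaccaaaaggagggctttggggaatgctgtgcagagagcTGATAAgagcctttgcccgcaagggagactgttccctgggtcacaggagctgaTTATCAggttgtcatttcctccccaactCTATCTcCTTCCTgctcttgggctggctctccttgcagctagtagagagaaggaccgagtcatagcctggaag
Gp1bb: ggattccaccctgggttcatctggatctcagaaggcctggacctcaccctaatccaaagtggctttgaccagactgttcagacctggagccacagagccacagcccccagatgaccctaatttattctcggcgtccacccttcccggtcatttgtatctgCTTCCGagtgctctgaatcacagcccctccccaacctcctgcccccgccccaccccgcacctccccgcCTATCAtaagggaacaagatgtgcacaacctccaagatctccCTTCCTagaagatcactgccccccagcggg
Gp1ba held GATA matches at positions -104, -51 and -23 from the annotated start (counted as 0) and an ETS match at -16. Gp1bb held a GATA match at -22 and ETS matches at -90 and 20, and Pf4 an ETS match at -9 and a GATA match at 36. Of the 8 promoters, 4 had a GATA match, 5 an ETS match and 3 both, while Ppbp and Treml1 had neither. Of all 32851 RefSeq promoters, 29.8% had a GATA match, 46.5% an ETS match and 12.6% both. A match is a description of letters and not a measured site, and its bearing on the levels in the libraries was not tested.

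Clec1b and Treml1 complete the set. Clec1b encodes CLEC-2, a receptor for podoplanin that acts through the kinase Syk. Its normalized counts were 344, 263 and 284 in the control libraries, against 248, 569 and 1184 in Che-1 silencing 1, 2 and 3. The relative levels were -0.17, 0.16 and 0.11 log2 units against -1.69, -1.22 and 1.12, a difference of -0.63 (SE 0.70, limma adjusted p = 0.519). In GENCODE M21 184 of its 5103 exon bases are shared with Clec9a on the same strand. Treml1 encodes TLT-1, a receptor stored in alpha granules and brought to the surface on activation. It had 202, 134 and 143 against 82.7, 317 and 669 normalized counts, and relative levels of -0.93, -0.80 and -0.87 against -3.26, -2.06 and 0.29 log2 units. Its range over the 6 libraries, 3.55 log2 units, was the widest of the 9, and the relative difference was -0.81 (SE 0.84, limma adjusted p = 0.491).

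**Figure D4:**
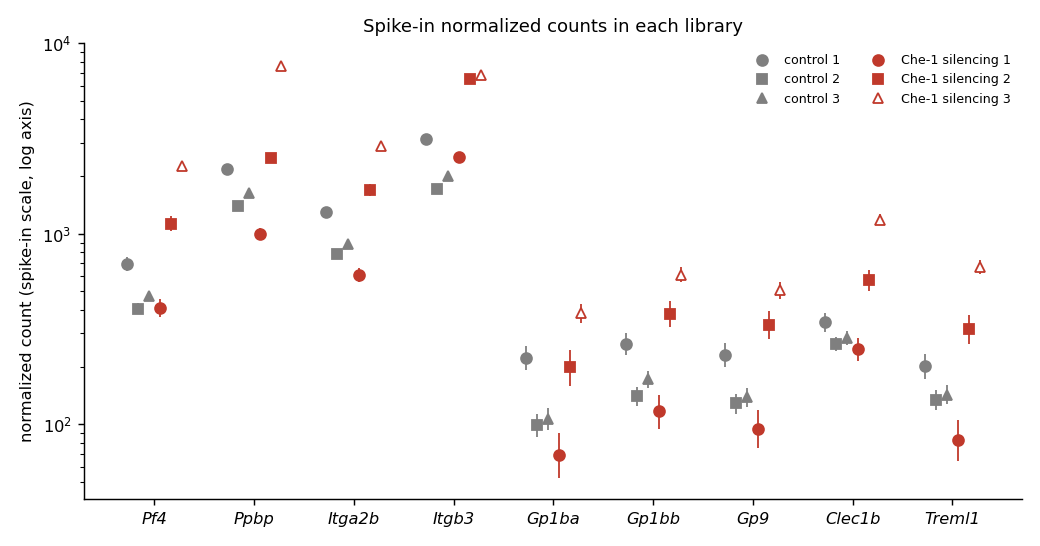
Spike-in normalized counts (vertical log axis) of the 9 genes in each library, with 95% Poisson intervals of the reads as bars where they exceed the symbol; symbols as for the relative levels. Che-1 silencing 3 is the highest library for every gene, and Che-1 silencing 1 lies below the control libraries in all but Pf4 and Itgb3, where it lies among them.

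By spike-in normalized counts Che-1 silencing 3 was above every control library in all 9 genes, beside 78.2% of all genes tested. In 0 of 9 were all 3 libraries labelled Che-1 silencing above all 3 control libraries, where 67.9% of all genes tested had that order, and in 0 of 9 were all 3 below, where 0.439% did. In the authors' deposited table the fold changes of the 9 genes ran from 1.52 for Gp1ba to 2.43 for Pf4. The adjusted p-values there ran from 0.283 for Itgb3 to 0.553 for Gp1ba.

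Levels between genes were compared per kilobase of exon, with exon lengths from GENCODE M21 (GRCm38) in place of the authors' annotation. A length was that of all annotated exons of a gene merged, which can exceed that of the transcript present and lower the level. In the control libraries Ppbp was highest at 1614 ± 373 normalized counts per kilobase, then Pf4 at 727 ± 210 and Itgb3 at 390.1 ± 129 (SD, n = 3 each). Gp9 at 189 ± 64.5 and Itga2b at 181 ± 50.2 followed, and their order was kept in 4 of 6 libraries only. Treml1 (114 ± 26.4), Gp1bb (92.4 ± 30.7), Clec1b (58.2 ± 8.21) and Gp1ba (52.5 ± 25.4) were the lowest. The place of Gp1bb is uncertain, since 1902 of the 2087 bases it was divided by are shared with Sept5. Clec1b was above Gp1ba in 5 of 6 libraries, and the other 6 neighbouring pairs kept their order in all 6.

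Other genes of the lineage were taken from 5 lists with 101 entries in the table, of which 96 were tested. Solved reads were lacking for Tln1, Syk, Myh9 and Flna, and G6b was below the minimum mean. By spike-in normalized counts 32 of 96 rose and none (0) fell, where 66.7% of all genes tested rose, and the median log2 difference was 0.87 beside 1.54 over all genes. That count was 13 without control 2 (21.8% of all genes), 14 without control 3 (24.2%), 20 without Che-1 silencing 2 (41.9%) and 41 without Che-1 silencing 3 (75.5%), where 1 fell. It was 2 with control 2 and 3 and Che-1 silencing 1 and 2 each summed into 1 library (3.62% of all genes), and 0 with each gene's own spread in place of the shared one (0% of all genes). On the relative scale 0 of 96 were called, with a median of -0.66. In 37 of 96 Che-1 silencing 1 and 2 lay below and Che-1 silencing 3 above every control library, a larger share than the 6.35% of all genes tested. By list this was 12 of 21 surface receptors, 7 of 20 granule genes and 12 of 26 signalling genes. It was 4 of 16 cytoskeleton genes and 2 of 13 transcription factors. Lists of other marrow cells, given below, had this order in 0 of 12 red cell genes to 6 of 13 neutrophil genes. Without Che-1 silencing 3, 62 of 96 fell and 13 rose on the relative scale, where 25.3% of all genes fell and 27.5% rose.

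Surface receptors had the list medians closest to those of the members, at -1.68, -1.22 and 0.69 log2 units from the control mean in Che-1 silencing 1, 2 and 3. Of 21 tested 5 rose on the spike-in scale (66.7% of all genes), and without Che-1 silencing 3 15 fell (25.3% of all genes) and 2 rose (27.5%) on the relative scale. The thromboxane receptor Tbxa2r, a receptor for a platelet activator, lay 2.15 and 2.16 log2 units below its control mean in Che-1 silencing 1 and 2 and 0.61 below in Che-1 silencing 3 (relative difference -1.64, SE 0.44, limma adjusted p = 0.0827). Pear1, a receptor that signals on platelet contact, differed by -1.18 (SE 0.33, limma adjusted p = 0.0841). Cd63, a granule membrane protein of many cell types, and Slamf1, a lymphocyte and stem cell receptor, went the other way, at 1.31 and 1.49 log2 units (limma adjusted p = 0.0722 for each). Cd63 and Slamf1 rose by 2.84 and 3.02 on the spike-in scale (SE 0.57 each; limma adjusted p = 1.53e-05 and 5.54e-06).

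Granule genes had list medians nearer to 0, at -1.29, -0.98 and 0.15 log2 units. Of 20 tested 6 rose on the spike-in scale, against 66.7% of all genes, and without Che-1 silencing 3 13 fell and 2 rose on the relative scale, against 25.3% and 27.5% of all genes. Nbeal2, needed to form alpha granules, differed by -0.73 log2 units on the relative scale (SE 0.18, limma adjusted p = 0.0785), and Tgfb1, a growth factor stored in platelets and made by many cells, by -0.46 (SE 0.15). Srgn, the proteoglycan that packs granules in platelets and other blood cells, and Clu, a secreted chaperone, differed by 0.87 and 0.52. Of the cytoskeleton list 6 of 16 rose on the spike-in scale, against 66.7% of all genes, among them the actin regulators Wdr1, Tpm4 and Cnn2 by 2.23, 2.11 and 1.99 log2 units, genes that most cells express. Zyx, an adhesion protein, stood 1.87 and 1.75 log2 units below its control mean in Che-1 silencing 1 and 2 and 0.21 below in Che-1 silencing 3. Without Che-1 silencing 3 10 of the 16 fell and 4 rose on the relative scale, against 25.3% and 27.5% of all genes.

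Of 26 signalling genes 11 rose by spike-in normalized counts (66.7% of all genes), and without Che-1 silencing 3 15 fell (25.3% of all genes) and 5 rose (27.5%) on the relative scale. Of the 26, 16 had a relative difference below 0 (49.3% of all genes). In 12 of them Che-1 silencing 1 and 2 lay below and Che-1 silencing 3 above every control library (6.35% of all genes). The 4 with the lowest relative p went the other way and were genes that other blood cells also use. These were Arhgdib, Plcg2, Fermt3 and Plek, which rose by 2.21, 2.58, 1.93 and 2.23 log2 units on the spike-in scale. Of the genes named from the lists, 11 were called higher on that scale. All 11 lost the call with each gene's own spread (limma adjusted p = 0.0728 for each). With both pairs of libraries summed 9 lost it, all but Cd63 and Slamf1 (limma adjusted p from 0.0885 to 0.152). Fermt3 lost it without control 2 or control 3 and Cnn2 without control 2.

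Transcription factors of the lineage had a median log2 difference of 0.96 on the spike-in scale and -0.57 on the relative scale. Of 13 tested 4 rose by spike-in normalized counts and 0 fell (66.7% and 0.748% of all genes), and on the relative scale 0 were called. Without Che-1 silencing 3, 9 fell and 0 rose on the relative scale, where 25.3% and 27.5% of all genes did. The relative median over the list stood -0.80, -0.67 and -0.34 log2 units from the control mean in Che-1 silencing 1, 2 and 3. Nfe2, needed for platelet release, stood at -3.34, -2.02 and -0.47 from its control mean (relative difference -1.95, SE 0.75, limma adjusted p = 0.124). Tal1, shared by the red cell and megakaryocyte lineages, stood at -2.80, -1.93 and -0.72. Control 1 was 1.17 log2 units above the control mean for Tal1 and 0.85 above it for Nfe2, where the red cell list stood 1.12 above. Mecom, a stem cell and megakaryocyte factor, stood at -1.09, -1.16 and -1.18 (relative difference -1.14, SE 0.23, limma adjusted p = 0.0730). Mkl1, a cofactor of the factor SRF, differed by -0.39 (SE 0.11, limma adjusted p = 0.0837). Gata1, Fli1 and Runx1 were named outside that rule, after their values had been seen. They stood at -2.82, -1.89 and -0.68 (Gata1), -0.43, -0.39 and 0.13 (Fli1) and -0.92, -0.82 and 0.03 (Runx1) from the control mean in Che-1 silencing 1, 2 and 3. For Gata1 control 1 was 1.33 above that mean and control 2 and 3 at -0.58 and -0.74.

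The genes most like the members in pattern were searched for among 11695 genes with a mean of at least 100 normalized counts. Likeness was Pearson's r over the 6 libraries between a gene's relative level and the mean centred profile of the 9 members. The 10 highest values ran from 0.994 to 0.997 and belonged to Trpc6, Rgs18, Gp5, Malt1, Tubb1, Selp, Ganc, Wdfy1, Dnmt3a and Mfap3l. Of these Gp5 encodes a further chain of the GPIb-IX complex, Selp the P-selectin of alpha granules and Tubb1 the beta tubulin of the platelet rim. Trpc6, Rgs18, Gp5, Tubb1, Selp and Mfap3l were in the lineage lists and ranged over 3.0 to 3.44 log2 units across the libraries. Malt1, Ganc, Wdfy1 and Dnmt3a were in none of the lists and ranged over 0.61 to 1.15. In all, 247 genes, or 2.11%, reached an r of 0.95, among them 26 of the 91 lineage genes searched. With 6 points, of which 3 control libraries nearly coincide, r rests on the 3 libraries labelled Che-1 silencing.

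Marker lists of other marrow cells moved along with the members in part. Measured as a list's median from its control mean on the relative scale, neutrophil genes (13 tested) stood at -3.41, -1.76 and 0.53 log2 units in Che-1 silencing 1, 2 and 3, and at -0.77, 0.38 and 0.43 in control 1, 2 and 3. Eosinophil, basophil and mast cell genes (11 tested) stood at -3.39, -1.57 and 0.33, with -0.80, 0.53 and 0.32 in the control libraries. Red cell genes (12 tested) stood at -3.29, -1.98 and -0.89, and control 1 at 1.12 against -0.57 and -0.56. Stem and progenitor genes (12 tested) were at -1.31, -1.08 and -0.29 and endothelial genes (12 tested) at -1.40, -1.43 and -0.75. Macrophage and monocyte genes (14 tested) were at -0.54, -0.23 and 0.67, plasma cell genes (11 tested) at 0.02, 0.10 and 0.63, and B cell genes (11 tested) at 0.18, 0.30 and -0.07. Of neutrophil genes 6 of 13 had Che-1 silencing 1 and 2 below and Che-1 silencing 3 above every control library (6.35% of all genes). So did 4 of 11 plasma cell genes and 3 of 14 macrophage and monocyte genes. In the B cell list, the endothelial list and the eosinophil, basophil and mast cell list 1 gene each did. In the red cell list and the stem and progenitor list 0 did. No gene of these lists with solved reads was at 0 in all 3 libraries of a group. The summed RPM of the neutrophil list ran from 414 to 1036 in the control libraries and were 59.5, 205 and 1029 in Che-1 silencing 1, 2 and 3. Those of the red cell list ran from 1631 to 4729 and were 351, 594 and 1264. The part of these cells in the values of the 9 genes was not tested.

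**Figure D5:**
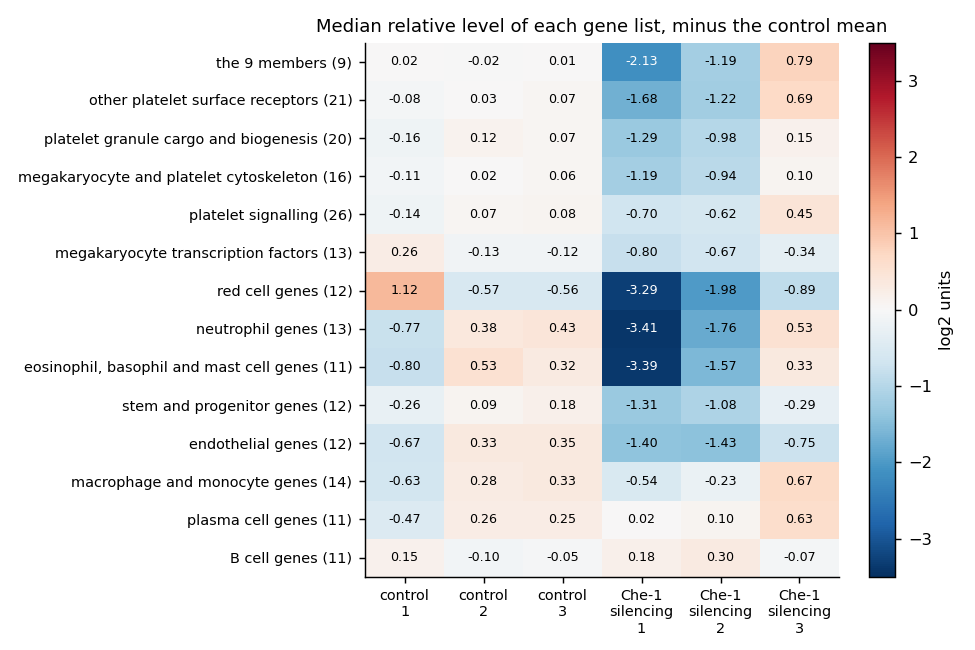
Median over each gene list (rows, with the number of genes tested) of the log2 relative level minus the control mean of each gene, in each library (columns), in colour and as printed values. The members read -2.13, -1.19 and 0.79 in Che-1 silencing 1, 2 and 3 and stay within 0.02 of 0 in the control libraries, while the red cell list reads 1.12 in control 1.

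Control 1 differed from the other control libraries in red cell and myeloid lists and in some members. Between control 1 and 2 the median chi-square of a gene's reads was 6.95 over all genes tested and 2.62 over the 9 members, with 17.5 for the highest member. Between control 1 and 3 it was 7.08 and 1.37, with 29.7 for the highest member. Control 2 and 3 were the closest pair, with a median chi-square per gene of 0.63 over all genes tested and 0.50 over the 9 members. The mean over all genes was 2.10, above the 1 that counting noise alone gives. Neither value can show whether the 2 libraries came from separate mice, since separate preparations of 1 RNA can also differ beyond counting noise. They were entered as separate replicates, as the labels number them. No member was called on either scale when they were summed into 1. Between Che-1 silencing 1 and 2 the median chi-square over the members was 33.0, beside 2.91 over all genes tested. Between Che-1 silencing 3 and these libraries it was 993 and 732 over the members, beside 25.3 and 19.1 over all genes tested.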

How the data were processed

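Bone marrow RNA was freed of ribosomal RNA and made into strand-specific libraries from 500 ng, per the labels' protocols. The submitters' processing notes name TopHat, Cufflinks, Cuffdiff and HTSeq and the build mm9, versions not given in the sources used here. Deposited for each library were raw read counts of 92 ERCC spike-ins, beside 5 summary rows that name no spike-in (0.0434% to 0.221% of those reads, kept out of spike-in totals). The authors' gene table holds group means of normalized signal, that is gene counts over a size factor. It also holds the ratio of the means (fold), its log2, and a p-value with its adjusted form, per the file headers.

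Whole reads per library were solved from the group means with size factors over 72 rows (70 spike-ins and 2 summary rows). A solution was a set of 3 whole counts whose mean matched within 0.55 of the last printed digit plus a relative 1e-15. All 4739 control and 3330 Che-1 silencing means above 0 and below 50 had exactly 1 solution, and 0 had one with factors from spike-ins alone. This solved 17045 genes (99.3%). The other 128, all abundant, held 20.2% (control) and 19.9% (Che-1 silencing) of the summed means and were not used. Of 998 simulated means per group all 998 came back right.

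The design had assumed values per library, which the solved reads supply. limma 3.58.1 (R 4.3.3) with a mean trend was run on log2(normalized count + 1) of 14573 genes with a mean of at least 10. Such differences understate the change of low genes. Its prior degrees of freedom were infinite on the spike-in scale, where SEs and p-values use the trended spread in place of a gene's own, and 2.42 on the relative scale. P-values were adjusted by Benjamini-Hochberg across every tested gene, and calls were made at 0.05. Alternatives were edgeR 4.0.16 and DESeq2 1.42.0 on the solved counts, other pseudocounts and minimum means, other scalings, summed libraries, a replicate block and each library left out. On simulated counts with 200 changed genes the relative-scale fit recovered 0% of 2-fold changes among 14383 genes and 88.5% of 8-fold changes among 14380.

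Named genes were the 9 members, the 4 with the lowest relative p in each lineage list, the 10 most like the members in pattern, Sept5 and Aatf. The members and lists were chosen with earlier results of these data known.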

Additional observations from a re-analysis of the deposited data

How the results depend on the processing

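For the 9 members, 0 rose on the spike-in scale (66.7% of all genes), with 3 by edgeR (68.9%) and 2 by DESeq2 (72.4%). When single libraries were left out 0 to 1 rose. On the relative scale 0 fell, with 0 to 9 when single libraries were left out. The 9 came without Che-1 silencing 3, where 25.3% of all genes fell. The replicate block, with 0 calls on either scale, changed no call of a member. Among the other 96 lineage genes 32 rose on the spike-in scale (66.7% of all genes). That count was 13 to 41 when single libraries were left out. It was 13 without control 2 (21.8% of all genes), 14 without control 3 (24.2%) and 20 without Che-1 silencing 2 (41.9%). The count was 19 with the replicate block (45.9% of all genes) and 14 with control 2 and 3 summed (23.5%). It was 2 with both pairs summed (3.62%) and 0 with each gene's own spread (0%). With a library left out 0 to 1 fell. On the relative scale 0 rose and 0 fell among the 96. With a library left out 0 to 13 rose and 0 to 62 fell. DESeq2 called 12 rises and 12 falls among the 96, where it called 14.9% of all genes higher and 12.1% lower. The 62 falls and 13 rises came without Che-1 silencing 3 (25.3% and 27.5% of all genes), and 1 fall without control 1. Same-numbered libraries had correlations of 0.17, -0.15 and 0.18 between their deviations from the group means, and differently numbered ones from -0.21 to 0.18. Deviations from a mean of 3 libraries are tied to each other, so these values cannot decide whether the replicate numbers pair the libraries.

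Signs turned without a call in 12 values. With single libraries left out, Ppbp ranged from -0.12 to 1.35 and Gp1ba from -0.18 to 1.05 on the spike-in scale, both lowest without Che-1 silencing 3. Tal1 ranged there from -0.71 to 0.51, Nfe2 from -0.85 to 0.31 and Tbxa2r from -0.32 to 0.17, each above 0 only without control 1 or without Che-1 silencing 1. On the relative scale Pf4 ranged from -1.42 to 0.094 and Itgb3 from -0.96 to 0.022, both highest without Che-1 silencing 1, and Pf4 was at 0.051 by edgeR and by DESeq2. The cause was not tested. Depth limits Gp1ba, Gp9 and Treml1 most, with 56, 77 and 67 reads in their lowest library.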
